A study of Arabidopsis thaliana with 39 samples.

Results

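*35S::SLIM1 #17*, a transgenic *Arabidopsis thaliana* line in which the coding sequence of the transcription factor *SLIM1* stands behind the constitutive viral 35S promoter, was compared with the wild type Col-0 in rosettes harvested 37 days after sowing (DAS). The comparison rests on 3 libraries of *#17* (T2 plants of 1 transformation line with a single insert) and 3 libraries of Col-0. Of the 33110 genes in the count table of the series, 20296 passed a filter on low counts and were tested, and these hold 99.98% of the reads counted. The series holds 39 libraries, of which 30 DAS and 44 DAS libraries of *#17* and Col-0, and 37 DAS libraries of a further line, *35S::SLIM1 #25*, and of *slim1-cr*, are used below. *slim1-cr* carries a CRISPR/Cas9 deletion in *SLIM1* that takes out the DNA-binding domains. All plants were grown on sucrose-containing agar and then in soil with sufficient nutrients under long days, but the seeds of the overexpressors germinated on hygromycin and those of Col-0 did not, so that this treatment and the transgene cannot be told apart here. RNA was taken from rosette tissue after the stalk and reproductive tissue had been cut off, and how many plants went into a sample is not given in the sources used here.

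EIN3 and EIL1, which switch on ethylene responses, are the best known relatives of SLIM1, whose other name is EIL3 (ETHYLENE-INSENSITIVE3-LIKE 3). In plants short of sulfur, SLIM1 is required for the rise of sulfate transporters and of a small group of marker genes, among them the *LSU* (*RESPONSE TO LOW SULFUR*) genes, *SDI1* (*SULFUR DEFICIENCY INDUCED 1*), which holds back glucosinolate synthesis, and *GGCT2;1*, which degrades glutathione. A sulfur-responsive element, SURE (GAGAC, searched on either strand), and the TEBS element known to be bound by EIN3-like proteins have been described as sites of SLIM1 binding. TEBS was searched on either strand as A, then C or T, G, then A or T, A, then C or T, and C, T, and the elements were counted independently of each other. Transcripts of 4 of these marker genes, all higher in *#17* but that of *SDI1* not securely, serve as examples here. The 250 bases that precede their annotated starts are printed. They were read from the TAIR10.1 sequence of RefSeq, 5′ to 3′ on the strand of the gene, and capitals mark GAGAC or its reverse complement GTCTC.
*LSU3* (AT3G49570, chr3:18373148-18373397, minus strand): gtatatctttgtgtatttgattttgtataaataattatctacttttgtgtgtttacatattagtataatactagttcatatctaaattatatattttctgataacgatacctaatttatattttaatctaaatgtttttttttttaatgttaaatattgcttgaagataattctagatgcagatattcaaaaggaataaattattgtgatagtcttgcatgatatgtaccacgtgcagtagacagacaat
*LSU1* (AT3G49580, chr3:18375941-18376190, minus strand): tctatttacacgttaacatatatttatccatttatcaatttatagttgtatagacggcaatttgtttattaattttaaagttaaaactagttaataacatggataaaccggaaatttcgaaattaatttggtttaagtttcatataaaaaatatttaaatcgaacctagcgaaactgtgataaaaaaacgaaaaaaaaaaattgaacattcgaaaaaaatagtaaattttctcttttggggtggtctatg
*GGCT2;1* (AT5G26220, chr5:9164885-9165134, minus strand): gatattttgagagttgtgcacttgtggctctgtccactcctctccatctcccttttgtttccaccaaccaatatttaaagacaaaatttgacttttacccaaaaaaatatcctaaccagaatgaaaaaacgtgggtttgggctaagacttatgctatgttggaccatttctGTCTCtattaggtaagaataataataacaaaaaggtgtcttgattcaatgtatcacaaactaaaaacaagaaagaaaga
*SDI1* (AT5G48850, chr5:19807854-19808103, minus strand): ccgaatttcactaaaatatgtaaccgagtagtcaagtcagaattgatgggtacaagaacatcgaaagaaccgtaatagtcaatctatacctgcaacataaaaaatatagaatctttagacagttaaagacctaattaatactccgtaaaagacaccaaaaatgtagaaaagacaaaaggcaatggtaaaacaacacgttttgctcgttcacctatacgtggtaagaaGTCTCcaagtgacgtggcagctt
The windows of *GGCT2;1* and *SDI1* hold 1 SURE each, and those of *LSU3* and *LSU1* hold none. Over 1000 upstream bases *SDI1* holds 3 SURE, *GGCT2;1* holds 1, *LSU3* holds 1 TEBS and no SURE, and *LSU1* holds neither element. A SURE stood within 1000 bases of 70.3% of the genes higher in *#17*, of 73.4% of those lower and of 72.0% of all genes tested. For TEBS the shares were 23.8%, 24.8% and 24.6%. For both elements the share was thus slightly below that of all genes tested in the genes that rose and slightly above it in those that fell. These small differences were not tested, and a match of letters is a description and not a binding site.

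The 6 libraries held 38.7 to 45.8 M counts each. For genes of ordinary level the spread between replicates, and not the depth, set the precision. The 3 libraries of *#17* were not alike. For 4716 of the 7469 genes that differed, which is 63.1%, the library of *#17* nearest to Col-0 was replicate 3, and results that hang on it are given with and without it. Within Col-0, replicate 1 stood apart in genes of jasmonate synthesis. The summed level of 5 rosette mesophyll markers was 14570, 12730 and 24090 CPM (counts scaled to a common library size with TMM factors) in *#17*, against 23640, 22430 and 22030 CPM in Col-0, and none of them was called, while replicate 3 of *#17* was the one at the Col-0 level. Flower organ markers summed to 19.1, 24.8 and 25.0 CPM in *#17* and to 55.1, 9.36 and 14.1 CPM in Col-0, so that Col-0 replicate 1 held the most flower RNA. The libraries highest in flower markers, left out together in an alternative below, were Col-0 replicate 1 and *#17* replicate 3. Root markers (31.8 to 42.2 CPM in *#17*, 43.6 to 60.1 CPM in Col-0) and seed storage markers (at most 1.396 CPM in *#17*, at most 6.43 CPM in Col-0) were low. *RHD6* of roots and *CRC* of seeds were at 0 in all 6 libraries. The root sum came almost wholly from *SCR* and *SHR* (39.3 and 20.6 CPM in Col-0 replicate 1). *SCR* was called lower in *#17*, as were *LFY* of the flower organ markers and *MYB60* of guard cells. In bulk rosette tissue, fewer cells of a type and less RNA per cell cannot be told apart.

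*SLIM1* (AT1G73730), the gene the transgene carries, stood at 369, 369.7 and 284 CPM in *#17*, against 21.5, 23.1 and 23.4 CPM in Col-0. The lowest library of *#17* was thus still far above the highest of Col-0 (log2FC 3.91, SE 0.22, adjusted p = 5.28e-06). Values of log2FC are log2 of *#17* over Col-0, their SE comes from the fit, and p-values are those of the quasi-likelihood test of edgeR adjusted by Benjamini and Hochberg over all genes tested. A gene counts as called, and is said to have risen or fallen, where this adjusted p is below 0.05. Reads of the transgene count to *SLIM1*, and the endogenous transcript was not separated. *SLIM1* also overlaps a gene on the other strand (AT1G73720), as do *CML30*, *AHP4*, *APS3*, *APR1*, *ATG4A*, *GDH1*, *ASN1*, *RAB18*, *EBF2*, *ERS1*, *CBF3*, *CLH2*, *ARR6*, *GUN4*, *FKF1*, *FLC*, *SPL4*, *SPL5*, *DIN10*, *ORA47*, *WRKY41* and *ADT6* below, and whether the read counting used strand is not given in the sources used here. *EIL1* also rose, with 117, 95.2 and 138 CPM in *#17* and 81.3, 79.5 and 66.1 CPM in Col-0 (log2FC 0.63, adjusted p = 0.0188), but lost its call without Col-0 replicate 3, without *#17* replicate 1 or 3 and without the libraries highest in flower markers (adjusted p = 0.0511 to 0.0697). The call of *EIN3* lay at the threshold (log2FC 0.28, adjusted p = 0.0489) and was lost in 11 of 16 alternatives, among them RLE factors, library size alone, no count filter and all 39 libraries (adjusted p = 0.05004 to 0.165).

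Over all genes, 4019 (19.8%) rose and 3450 (17%) fell in *#17*. Of these, 1322 rose and 717 fell by more than 2-fold, and 298 and 154 by more than 4-fold. The median log2FC was -0.02 and the median size of the log2FC was 0.35. The number of genes that fell was 1951 without *#17* replicate 1, 1988 without replicate 2 and 4503 without replicate 3. The split between rises and falls also depended on the scaling. With library size in place of TMM factors, which shifts the median log2FC to -0.09, 3320 genes rose and 4389 fell. In 46.6% of all genes tested the libraries of *#17* and Col-0 do not overlap. The plot of log2FC against mean level shows where the genes described below lie.

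**Figure D1:**
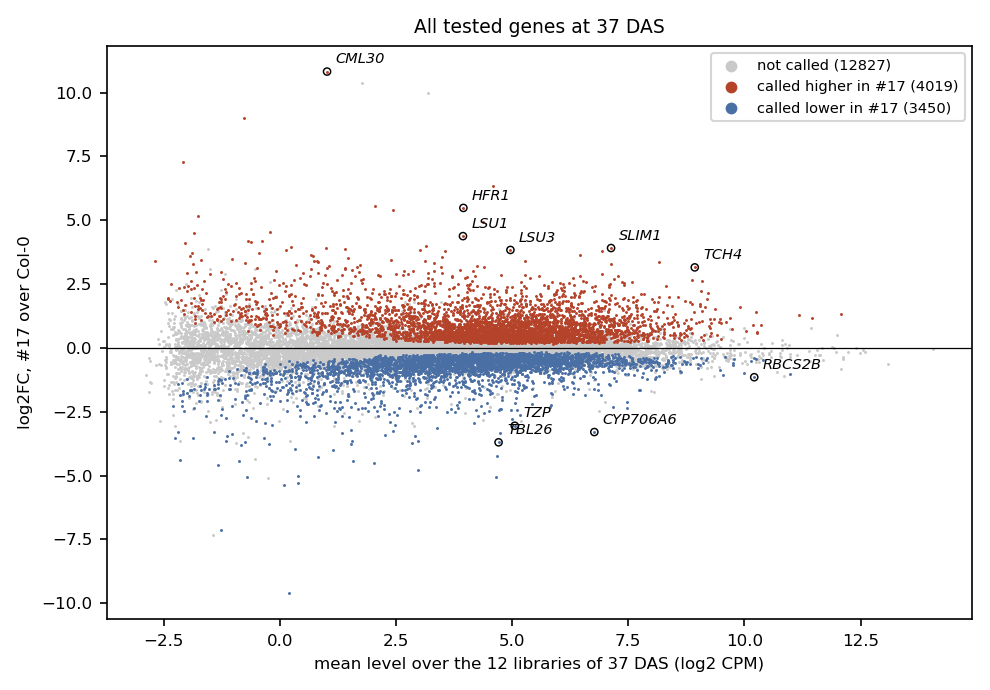
Difference between *#17* and Col-0 at 37 DAS (log2FC, vertical) against the mean level over the 12 libraries of that day (log2 CPM, horizontal) for the 20296 genes tested, coloured by call. The 4019 genes that rose and the 3450 that fell spread over the whole range of levels, and *SLIM1*, *LSU1*, *LSU3* and *HFR1* lie far above 0 while *TZP*, *CYP706A6* and *TBL26* lie far below.

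Marker genes of sulfur deficiency rose although the plants had sufficient nutrients. Of 15 list members tested, 11 rose and none fell, with a median log2FC of 1.27, against 19.8% rises and a median of -0.02 over all genes. *LSU1*, whose small protein binds many partners under stress, was at 24.6, 16.4 and 16.8 CPM in *#17*, against 1.099, 1.05 and 0.637 CPM in Col-0 (log2FC 4.38, SE 0.29, adjusted p = 1.28e-05). *LSU3* was at 44.2, 39.2 and 41.7 CPM in *#17*, against 2.74, 3.65 and 2.397 CPM in Col-0 (log2FC 3.83, SE 0.21, adjusted p = 5.01e-06). Both were low in every Col-0 library and far higher in every library of *#17*. *LSU4* followed at a lower level (4.12, 4.00 and 2.25 CPM in *#17*, 1.44, 1.39 and 0.594 CPM in Col-0, log2FC 1.599), and *LSU2* had a log2FC of 0.85 that was not called. *GGCT2;1* stood at 36.2, 37.2 and 29.0 CPM in *#17*, against 10.9, 20.2 and 10.2 CPM in Col-0 (log2FC 1.31, adjusted p = 0.00386). *SDI1* was the least secure of the group, with 8.45, 9.51 and 2.18 CPM in *#17* and 2.501, 2.34 and 0.594 CPM in Col-0. Its libraries overlap, and the call (log2FC 1.89, adjusted p = 0.0301) was lost without Col-0 replicate 2 or 3 or *#17* replicate 1 or 2, with adjusted p-values of 0.0501 to 0.104. *BGLU30*, a beta-glucosidase also known as a dark-induced gene, rose to 6.09, 22.5 and 9.70 CPM in *#17*, against 0.517, 3.19 and 1.08 CPM in Col-0 (log2FC 3.02, or 2.32 without *#17* replicate 2 and 3.99 without Col-0 replicate 2). The other beta-glucosidase of the list, *BGLU28* (log2FC 0.28), as well as *SDI2* (0.64) and *SERAT3;2* (-0.42) were not called, and *SULTR1;1* was too low to be tested.

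The *LSU* values and the list as a whole have to be read beside the other genotypes of the day. On the scaling of all 39 libraries, *LSU1* was at 23.7, 15.8 and 16.6 CPM in *#17*, at 16.1, 22.3 and 24.3 CPM in *#25* and at 18.4, 24.4 and 15.9 CPM in *slim1-cr*, against 1.08, 1.01 and 0.622 CPM in Col-0. *LSU3* was at 42.6, 37.7 and 41.2 CPM in *#17*, at 23.7, 39 and 31.2 CPM in *#25* and at 51.4, 47.5 and 43.4 CPM in *slim1-cr*, against 2.69, 3.51 and 2.34 CPM in Col-0. The 3 Col-0 libraries are thus the low ones among 12, and the overexpressor and the mutant lie on the same side of them. Over the whole deficiency list the median log2FC against Col-0 was 1.27 in *#17*, 1.00 in *#25* and 1.155 in *slim1-cr*. The rise of the list was therefore not particular to the overexpressors. All 3 comparisons share the Col-0 libraries. Col-0 itself was higher in *LSU1* at 30 DAS, with 3.68, 6.33 and 6.15 CPM.

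Sulfate transport and assimilation as a whole did not stand out, with 5 rises (*APS3*, *APS4*, *APR1*, *APK4* and *SULTR2;2*) and 2 falls among 26 genes and a median log2FC of 0.02. *SULTR1;2*, *SULTR4;2* and *APR3* take part in the same pathway and are counted with the deficiency markers. *APS3*, an ATP sulfurylase that activates sulfate, was at 139, 179 and 76.7 CPM in *#17*, against 21.5, 31.3 and 42.7 CPM in Col-0 (log2FC 2.05, SE 0.42, adjusted p = 0.00418). *APS4* rose with a log2FC of 1.23. The APS reductases, which make sulfite, rose in *APR1* (193, 166 and 125 CPM in *#17*, 62.9, 57.1 and 55.5 CPM in Col-0, log2FC 1.46) and in *APR3* (108, 104 and 89.0 CPM in *#17*, 53.1, 47.4 and 24.4 CPM in Col-0, log2FC 1.27). Among the transporters, the high-affinity uptake carrier *SULTR1;2* was at 19.1, 12.7 and 12.5 CPM in *#17*, against 5.28, 5.61 and 5.01 CPM in Col-0 (log2FC 1.48, SE 0.17, adjusted p = 0.00018). *SULTR2;2* of the vasculature rose with a log2FC of 1.06 and *SULTR4;2*, which releases sulfate from the vacuole, with 0.95. *SULTR3;5* went the other way, with 0.518, 0.426 and 2.13 CPM in *#17* and 7.14, 9.51 and 6.15 CPM in Col-0 (log2FC -2.88, adjusted p = 0.00219, and -3.999 without *#17* replicate 3). The other fall was in *APK3* (-0.55), an APS kinase, which was not called without Col-0 replicate 3, without *#17* replicate 1 or 2 or with only the 2 groups compared (adjusted p = 0.0534 to 0.0839). The rise of *APK4* was not called without *#17* replicate 1 (adjusted p = 0.0556) or with only the 2 groups compared (adjusted p = 0.0536). The plot of single libraries sets 3 of these sulfur genes beside members of the groups described next.

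**Figure D2:**
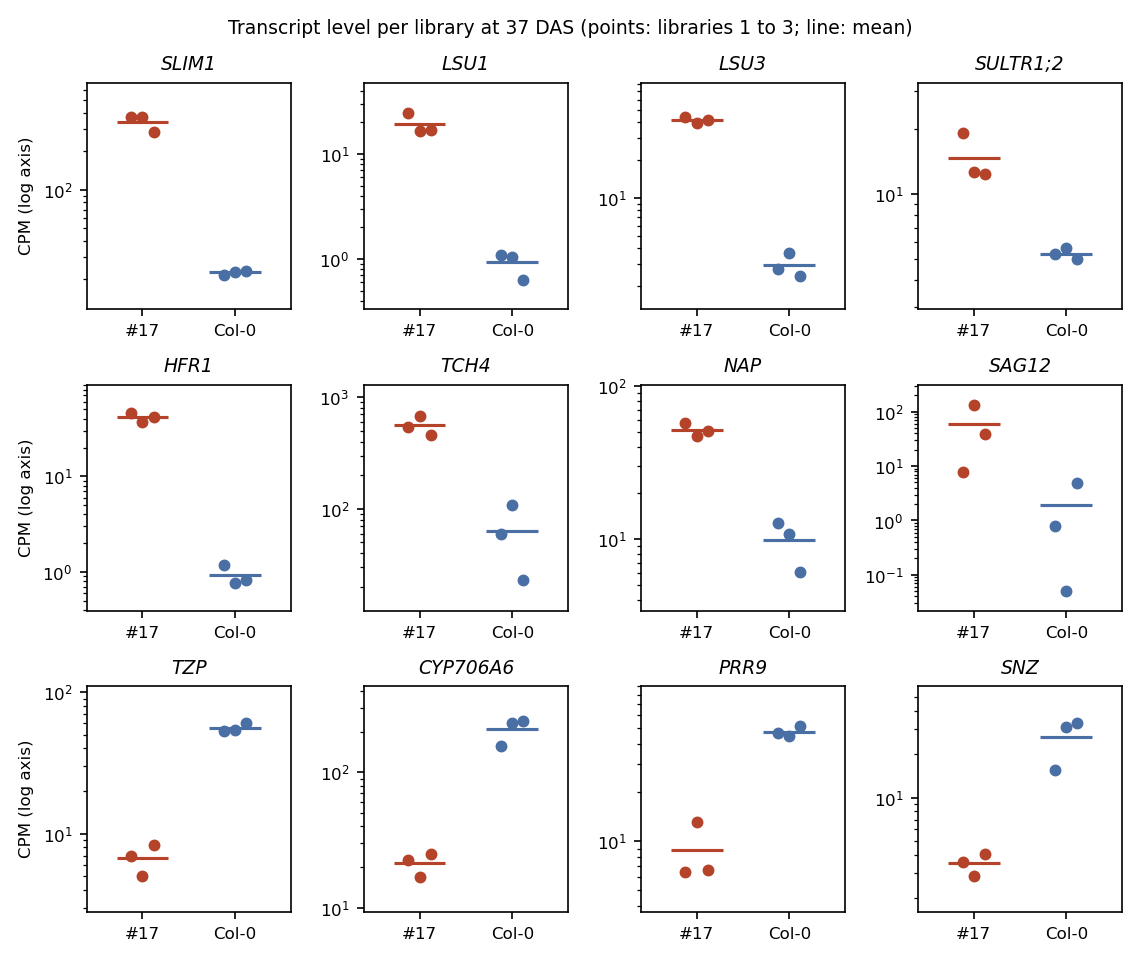
Level of 12 genes in each library at 37 DAS (CPM, log axis), with the 3 libraries of *#17* left and the 3 of Col-0 right of each panel and a line at each mean. The groups do not overlap in any panel, and the widest spread is in *SAG12*, where *#17* runs from 7.84 to 134 CPM and Col-0 from 0.0514 to 4.94 CPM.

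The highest log2FC outside this pathway belonged to genes of varied function. *HFR1*, a bHLH protein of far-red light and shade responses, was at 46.4, 37.1 and 41.8 CPM in *#17*, against 1.19, 0.771 and 0.827 CPM in Col-0 (log2FC 5.48, SE 0.37, adjusted p = 1.52e-05). *AHP4*, a phosphotransfer protein of cytokinin signalling, was at 19.2, 18.7 and 3.98 CPM in *#17*, against 0.0431, 0.0514 and 0.764 CPM in Col-0. Its log2FC of 5.55 (SE 1.06, adjusted p = 0.00294) became 8.13 without Col-0 replicate 3, since the other Col-0 libraries were almost at 0. *XTH33*, a xyloglucan endotransglucosylase that remodels cell walls, was at 33.8, 28.2 and 12.1 CPM in *#17*, against 1.42, 2.21 and 1.02 CPM in Col-0 (log2FC 4.00). *PUP18* of the purine permease family was by far the most abundant of the group, at 469, 587 and 372 CPM in *#17* and 44.7, 64.5 and 28.75 CPM in Col-0 (log2FC 3.37, SE 0.28, adjusted p = 4.94e-05). *SOB5*, linked to cytokinin, rose to 5.16, 7.90 and 3.37 CPM in *#17*, against 0.259, 0.566 and 0.318 CPM in Col-0. *HIS1-3*, a linker histone induced by drought, rose to 18.9, 34.3 and 14.96 CPM in *#17*, against 1.83, 2.26 and 2.78 CPM in Col-0. *PHI-1*, a phosphate-induced gene, stood at 125, 157 and 102 CPM in *#17*, against 9.46, 26.4 and 3.97 CPM in Col-0 (log2FC 3.27, and 4.25 without Col-0 replicate 2). Groups that do not overlap were a condition for naming all these genes. This includes *PHI-1*, which was named for its departure from 30 DAS.

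Several of the highest log2FC came mainly from *#17* replicate 2. The polygalacturonase *PGAZAT* was at 2.05, 24.8 and 1.42 CPM in *#17*, against 0.108, 0.206 and 0.339 CPM in Col-0, and its log2FC was 5.41 with all libraries and 2.97 without that replicate. *DOX1*, an alpha-dioxygenase of oxylipin synthesis, was at 4.69, 38.96 and 9.30 CPM in *#17*, against 1.49, 1.85 and 0.446 CPM in Col-0 (log2FC 3.82, and 2.48 without it). Both genes stayed called. The lipid transfer protein *LTP3* was at 97.6, 197 and 18.0 CPM in *#17*, against 14.3, 8.66 and 6.85 CPM in Col-0, and its call (log2FC 3.39, adjusted p = 0.0176) was lost without this library or without Col-0 replicate 2 or 3 (adjusted p = 0.0557 to 0.0692). *CML30*, a calmodulin-like gene, was at 0 in all 3 Col-0 libraries and at 5.96, 5.13 and 4.18 CPM in *#17*, which is at least 225-fold higher, taking 3 counts over the Col-0 group as the floor. In Col-0 at 44 DAS it was at 6.33, 8.49 and 4.72 CPM.

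Genes that plants switch on within minutes of touch or wounding rose in most cases. Of 15 listed genes, 11 rose (73.3%, beside 19.8% over all genes) and none fell, with a median log2FC of 1.57. *TCH4*, another cell wall xyloglucan enzyme, was at 541, 685 and 460.0 CPM in *#17*, against 59.1, 107 and 23.1 CPM in Col-0 (log2FC 3.15, SE 0.49, adjusted p = 0.000979, and 3.77 without Col-0 replicate 2). *CML38*, a calcium sensor, was at 88.9, 158 and 75.3 CPM in *#17*, against 5.78, 23.2 and 19.0 CPM in Col-0 (log2FC 2.75, adjusted p = 0.004). *TCH3*, a calmodulin-like protein, was at 1410.0, 1811 and 1402 CPM in *#17*, against 505, 575 and 441 CPM in Col-0 (log2FC 1.604). The ethylene response factors *ERF6* (log2FC 2.13) and *ERF104* (2.09), the zinc finger genes *ZAT10* (1.96) and *ZAT12* (1.02) and the WRKY factors *WRKY40* (1.44) and *WRKY33* (1.122) rose too. *CZF1*, *ERF13*, *RRTF1* and *MYB15* were not called. The summed pattern can be seen in the mean of log2(CPM + 0.5) over the list, which was 6.17, 6.69 and 6.08 in *#17* and 4.31, 5.14 and 4.56 in Col-0. The count of rises stayed at 10 or 11 whichever of the 6 libraries was left out. These genes also respond to the handling of plants, and a share of handling in the difference was not tested.

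Senescence of leaves is driven by NAC and WRKY transcription factors, which activate genes for breakdown and export of leaf contents. Of 20 such regulators tested, 8 rose (40%, beside 19.8% over all genes) and 1 fell, with a median log2FC of 0.38. *NAP*, a NAC factor that promotes chlorophyll loss, was at 57.0, 46.9 and 50.7 CPM in *#17*, against 12.6, 10.8 and 6.05 CPM in Col-0 (log2FC 2.39, SE 0.24, adjusted p = 9.99e-05). *NAC6*, also called *ORE1*, was at 43.4, 26.9 and 34.2 CPM in *#17*, against 7.11, 7.43 and 4.50 CPM in Col-0 (log2FC 2.46, SE 0.24, adjusted p = 9.51e-05). *WRKY22* was at 30.3, 45.2 and 40.3 CPM in *#17*, against 5.69, 10.3 and 6.24 CPM in Col-0 (log2FC 2.39). The groups are well apart in all 3. The gene that fell, *WRKY54*, a repressor of senescence with salicylate-related roles, had a log2FC of -1.64 (adjusted p = 0.0223) and lost its call without Col-0 replicate 1 or *#17* replicate 1 or 2 (adjusted p = 0.0526 to 0.0854). Among 15 downstream genes 9 rose (60%) and 1 fell (median log2FC 1.28). *SAG21* was at 523, 760.1 and 589 CPM in *#17*, against 194, 178 and 101 CPM in Col-0 (log2FC 1.98), and *SAG20* at 287, 277 and 277 CPM in *#17*, against 70.5, 116 and 95.9 CPM in Col-0 (log2FC 1.57). *SAG12*, a cysteine protease of late senescence, was at 7.84, 134 and 39.4 CPM in *#17*, against 0.798, 0.0514 and 4.94 CPM in Col-0. Its log2FC of 4.93 (adjusted p = 0.0145) was 3.59 without *#17* replicate 2 (adjusted p = 0.0579) and 7.07 without Col-0 replicate 3. The sugar exporter *SWEET15* hung on the same library of *#17*, with a log2FC of 3.95 (adjusted p = 0.0438) and 0.74 without it (adjusted p = 0.594), and it was not called without any one of the Col-0 replicates either (adjusted p = 0.0664 to 0.115).

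Autophagy, which delivers cell contents to the vacuole for recycling, showed small but regular rises. Of 33 genes, 21 rose (63.6%, beside 19.8% over all genes) and 1 fell, with a median log2FC of 0.39 and small errors. Between 18 and 22 rose whichever library was left out. *ATG8E*, one of the ubiquitin-like proteins that coat autophagosomes, was at 90.4, 77.0 and 104 CPM in *#17*, against 33.1, 40.3 and 23.25 CPM in Col-0 (log2FC 1.49, SE 0.20, adjusted p = 0.000524). The protease that processes them, *ATG4A*, was at 68.5, 58.7 and 61.15 CPM in *#17*, against 31.0, 31.0 and 29.5 CPM in Col-0 (log2FC 1.04, SE 0.07, adjusted p = 1.41e-05). *ATG13A* of the initiating kinase complex was at 52.6, 51.6 and 46.2 CPM in *#17*, against 29.6, 27.3 and 25.3 CPM in Col-0 (log2FC 0.87, SE 0.08). All 8 *ATG8* genes that rose had log2FC between 0.36 and 1.49. *ATG1A*, a kinase of the same complex, was the gene that fell (log2FC -0.30, adjusted p = 0.0219), and no gene of the list fell without Col-0 replicate 3 or without *#17* replicate 1.

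Nitrogen remobilization genes rose in 7 (46.7%, beside 19.8% over all genes) and fell in 1 of 15. *GDH1*, a glutamate dehydrogenase, was at 236, 245 and 263 CPM in *#17*, against 126, 125 and 94.6 CPM in Col-0 (log2FC 1.109, SE 0.12, adjusted p = 0.00016). *GLN1;4*, a cytosolic glutamine synthetase, was at 275, 249.7 and 57.6 CPM in *#17*, against 40.8, 45.8 and 59.4 CPM in Col-0 (log2FC 2.00). Its replicate 3 of *#17* lay inside the Col-0 range. The asparagine synthetases differed in direction, with *ASN1* at 195, 339 and 760.2 CPM in *#17* and 101, 208 and 118 CPM in Col-0 (log2FC 1.601), and *ASN2* at 21.0, 19.0 and 47.0 CPM in *#17* and 114, 98.6 and 43.2 CPM in Col-0 (log2FC -1.56). Neither call was secure, since *ASN1* lost its call without Col-0 replicate 1 or 3 or *#17* replicate 2 or 3 (log2FC 0.91 and adjusted p = 0.158 without *#17* replicate 3), and no gene of the list fell without Col-0 replicate 1 or 2 or *#17* replicate 1 or 2. The count of rises in this list was 3 without Col-0 replicate 1, Col-0 replicate 3 or *#17* replicate 2. In nitrate transport, reduction and signalling 9 of 36 genes rose and 5 fell (median log2FC 0.22). These are 25% and 13.9%, beside 19.8% and 17% over all genes. *NIA1*, a nitrate reductase, was at 87.0, 68.7 and 60.2 CPM in *#17*, against 282, 432 and 226 CPM in Col-0 (log2FC -2.12, SE 0.34, adjusted p = 0.00118). *NRT2.5*, a high-affinity nitrate carrier of starved plants, was at 7.99, 6.27 and 4.24 CPM in *#17*, against 1.27, 1.62 and 1.89 CPM in Col-0 (log2FC 1.95). *NRT1.2*, a constitutive low-affinity carrier, rose to 105.3, 89.0 and 94.2 CPM in *#17*, against 48.4, 51.6 and 37.2 CPM in Col-0. Falls in this list numbered 3 without Col-0 replicate 2 or *#17* replicate 1 and 2 without *#17* replicate 2.

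Phosphate starvation genes rose in 5 (35.7%, beside 19.8% over all genes) and fell in 1 of 14 tested. Galactolipid synthases that replace membrane phospholipids stood out. *MGD2* was at 18.5, 17.3 and 9.90 CPM in *#17*, against 5.30, 5.04 and 4.14 CPM in Col-0 (log2FC 1.66, SE 0.22, adjusted p = 0.000409). *MGD3* was at 6.76, 7.62 and 0.876 CPM in *#17*, against 0.604, 0.437 and 0.446 CPM in Col-0 (log2FC 3.35, adjusted p = 0.00321). The phosphate carriers went in different directions, *PHT1;5* with a log2FC of 1.35 and *PHT1;4* with -1.01, which was not called without Col-0 replicate 2 (adjusted p = 0.0528). Rises numbered 3 without Col-0 replicate 3 or *#17* replicate 2.

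Abscisic acid response genes rose in 7 (53.85%, beside 19.8% over all genes) and fell in 1 of 13. *CYP707A3*, which breaks the hormone down, was at 30.3, 51.7 and 22.6 CPM in *#17*, against 7.09, 6.58 and 3.69 CPM in Col-0 (log2FC 2.59, SE 0.34, adjusted p = 0.000411). *RAB18*, a dehydrin, was at 26.05, 42.4 and 13.3 CPM in *#17*, against 8.30, 7.199 and 7.96 CPM in Col-0 (log2FC 1.8). Most other rises were small, such as *ABF3* (0.33) and *ABF4* (0.32), and the count was 2 without Col-0 replicate 1 and 3 without *#17* replicate 1 or 2, so it is not stable. In ethylene synthesis and signalling 3 of 16 genes rose (18.75%, close to the 19.8% over all genes) and none fell. *EBF2*, the F-box protein that removes EIN3 and is itself an EIN3 target, was at 324, 267 and 369 CPM in *#17*, against 120, 143 and 98.1 CPM in Col-0 (log2FC 1.41, SE 0.16, adjusted p = 0.000214). *ERS1*, a receptor, was at 138, 122 and 146 CPM in *#17*, against 71.4, 81.6 and 71.8 CPM in Col-0 (log2FC 0.85, SE 0.09). *ACS7*, a synthesis enzyme, was close to the limit of detection, with 1.08, 1.73 and 1.71 CPM in *#17* and 0.280, 0.668 and 0.127 CPM in Col-0. Of 14 cold response genes 3 rose (21.4%, close to the 19.8% over all genes) and 1 fell. Without Col-0 replicate 1 or 2 or *#17* replicate 1, 1 rose. *COR413IM1* of the chloroplast membrane rose to 185, 205 and 114 CPM in *#17*, against 28.2, 45.0 and 51.3 CPM in Col-0. *CBF3*, a master regulator of cold acclimation, fell to 1.15, 0.710 and 1.08 CPM in *#17*, against 5.33, 3.52 and 6.11 CPM in Col-0 (log2FC -2.35, SE 0.31, adjusted p = 0.000418).

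The lowest log2FC also belonged to genes of varied function, among them cytochrome P450 genes. They too were named on condition that the groups do not overlap. This includes *CYP71B26*, which was named for its departure from 44 DAS. *TBL26*, of a family that acetylates cell wall sugars, was at 2.94, 3.83 and 2.63 CPM in *#17*, against 9.18, 38.9 and 73.8 CPM in Col-0. The spread within Col-0 was wide (log2FC -3.70, SE 0.88, and -2.94 without Col-0 replicate 3). *CYP706A6* was far tighter, with 22.4, 16.9 and 24.9 CPM in *#17* and 157, 234 and 238 CPM in Col-0 (log2FC -3.30, SE 0.20, adjusted p = 1.2e-05). *TZP*, a zinc finger protein that connects light and growth in the morning, was at 6.91, 5.04 and 8.35 CPM in *#17*, against 53.5, 53.8 and 60.9 CPM in Col-0 (log2FC -3.05, SE 0.16, adjusted p = 5.01e-06). *SNZ*, an AP2-type repressor of flowering, was at 3.56, 2.86 and 4.04 CPM in *#17*, against 15.7, 31.0 and 33.2 CPM in Col-0 (log2FC -2.93). *CYP71B26* was at 21.5, 18.6 and 17.38 CPM in *#17*, against 84.1, 102 and 103 CPM in Col-0 (log2FC -2.33, SE 0.12). *QQS*, a gene found in *A. thaliana* alone that affects the split of carbon between starch and protein, was at 4.64, 6.03 and 4.87 CPM in *#17*, against 38.6, 31.5 and 18.0 CPM in Col-0 (log2FC -2.50). *CLH2*, a chlorophyllase, was at 1.27, 1.54 and 0.943 CPM in *#17*, against 6.64, 7.12 and 7.04 CPM in Col-0 (log2FC -2.47). Further low genes were *NAS4* (nicotianamine synthase, log2FC -2.48) and *UGT76B1* (a glucosyltransferase of immune signals, -2.47). So were *OFP1* (an ovate family protein, -2.68, and -3.29 without *#17* replicate 3) and *TINY2* (a DREB-type factor, -2.65). The log2FC of another cytochrome P450 gene, *CYP78A8*, was -4.38 without *#17* replicate 3 and -2.83 without *#17* replicate 2.

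Type-A response regulators, which are induced by cytokinin and damp its signal, fell in 5 of the 8 tested. This is 62.5%, beside 17% over all genes, and the median log2FC was -1.43. This list was drawn up after the falls of *ARR15* and *ARR6* had been seen. *ARR4* was at 36.2, 32.6 and 87.0 CPM in *#17*, against 137, 175 and 162 CPM in Col-0 (log2FC -1.61, SE 0.33, adjusted p = 0.00413). *ARR7* was at 3.67, 4.92 and 12.7 CPM in *#17*, against 26.1, 25.6 and 24.8 CPM in Col-0 (log2FC -1.84). *ARR15* was at 0.432, 0.426 and 2.13 CPM in *#17*, against 7.29, 5.76 and 5.24 CPM in Col-0 (log2FC -2.61, and -3.82 without *#17* replicate 3). In each, replicate 3 of *#17* was the highest of its group. *ARR6* (log2FC -2.53) lost its call without *#17* replicate 2 (adjusted p = 0.0627).

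In genes of photosynthesis the libraries of *#17* were far from alike. No gene of the chlorophyll synthesis list rose and 10 of 23 fell (median log2FC -0.40), and of 30 photosystem and electron transport genes 7 fell (median -0.27). Of 27 Calvin cycle genes 3 fell (11.1%), of 20 antenna genes 1 (5%), and of 28 plastid ribosome proteins 2 (7.14%). These shares lie below the 17% of all genes that fell, although the median log2FC of the plastid ribosome list was -0.64. Chlorophyll synthesis (43.5%) and the photosystems (23.3%) lay above it. The mean of log2(CPM + 0.5) over the plastid ribosome list was 6.89, 6.82 and 7.89 in *#17*, against 8.02, 7.83 and 7.92 in Col-0. That over the chlorophyll synthesis list was 7.08, 6.94 and 7.82 in *#17*, against 7.86, 7.67 and 7.71 in Col-0. Replicates 1 and 2 of *#17* were thus below Col-0, and replicate 3 lay within the Col-0 range in both lists. Without replicate 3, the counts of falls were 20 for chlorophyll synthesis, 28 for plastid ribosome, 22 for photosystems, 19 for the Calvin cycle and 9 for the antenna. Without replicate 1 they were 0, 0, 1, 1 and 0. Without Col-0 replicates 1, 2 and 3 in turn, chlorophyll synthesis gave 2, 2 and 1 falls, the photosystems 2, 2 and 3, and the plastid ribosome none. Without *#17* replicate 2, 1 gene fell in each of chlorophyll synthesis, the photosystems and the Calvin cycle. *GUN4*, which boosts the first chlorophyll step, was at 36.1, 23.5 and 84.55 CPM in *#17*, against 141, 123 and 118 CPM in Col-0 (log2FC -1.40, adjusted p = 0.0177). Its log2FC was -2.10 without *#17* replicate 3, and -1.24 without replicate 1, where the call was lost (adjusted p = 0.0709). *RBCS2B*, a small subunit of Rubisco, was at 446, 465 and 905 CPM in *#17*, against 1647, 1273 and 1106 CPM in Col-0 (log2FC -1.15), and was not called without Col-0 replicate 1 or *#17* replicate 1 or 2 (adjusted p = 0.0667 to 0.0818). *FNR2*, the ferredoxin-NADP reductase, kept its call whichever library was left out, with 466, 389.9 and 567 CPM in *#17* and 817, 939 and 820 CPM in Col-0 (log2FC -0.86, SE 0.17, adjusted p = 0.00319). Chlorophyll breakdown genes rose in 3 and fell in 3 of 13 (23.1% each, beside 19.8% and 17% over all genes). The number that rose lay between 0 and 6 as libraries were left out.

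Cell cycle genes fell as well, in 53.85% of those tested beside 17% over all genes. Of 13 cell cycle genes 7 fell and none rose (median log2FC -0.75), among them the replication genes *PCNA1* (4.36, 3.64 and 6.80 CPM in *#17*, 12.6, 8.64 and 10.8 CPM in Col-0, log2FC -1.11, adjusted p = 0.00593) and *MCM2* (7.15, 6.34 and 12.6 CPM in *#17*, 20.8, 15.7 and 16.6 CPM in Col-0, log2FC -1.02). The highest library was again replicate 3 in *#17*, and 13 genes fell without it. Without Col-0 replicate 1 or *#17* replicate 1 or 2 the count was 2, and without Col-0 replicate 3 it was 4. Col-0 replicate 1 was the Col-0 library with the most shoot meristem marker RNA (24.1 CPM against 11.9 and 12.0 CPM in the other Col-0 libraries, and 11.8, 12.8 and 19.0 CPM in *#17*), and its part in the result was not tested. Of 10 expansins, which loosen cell walls, 3 fell (30%), and 1 fell without *#17* replicate 1. *EXPA15* was at 2.7, 2.65 and 5.73 CPM in *#17*, against 12.3, 7.53 and 8.59 CPM in Col-0 (log2FC -1.36).

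Clock genes fell in 8 and rose in 2 of 18. These are 44.4% and 11.1%, beside 17% falls and 19.8% rises over all genes. *PRR9*, a repressor that peaks in the morning, was at 6.46, 13.2 and 6.65 CPM in *#17*, against 46.5, 44.3 and 51.1 CPM in Col-0 (log2FC -2.43, SE 0.24, adjusted p = 9.5e-05). *LNK1*, a coactivator of evening genes, was at 38.5, 37.4 and 31.1 CPM in *#17*, against 85.2, 81.2 and 82.5 CPM in Col-0 (log2FC -1.22, SE 0.09, adjusted p = 1.74e-05). *GI*, which links the clock to flowering, was at 54.9, 70.2 and 38.7 CPM in *#17*, against 141, 149.7 and 129 CPM in Col-0 (log2FC -1.36). The groups were clearly apart in each. *FKF1*, the light-sensing partner of GI, fell as well (log2FC -1.52). *LHY*, a morning factor, rose to 23.9, 23.4 and 26.6 CPM in *#17*, against 12.9, 11.3 and 18.0 CPM in Col-0 (log2FC 0.81, adjusted p = 0.00837, but 0.68 and adjusted p = 0.0528 without the libraries highest in flower markers), while its partner *CCA1* fell (log2FC -0.49). Falls numbered 6 to 9 whichever library was left out, and rises 1 without Col-0 replicate 2 or 3 or *#17* replicate 1 or 3. The hour of harvest is not given in the sources used here, and a difference in it between groups was not tested.

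Among 20 flowering-time genes 7 rose and 3 fell (35% and 15%, beside 19.8% and 17% over all genes). *TEM1*, a repressor of flowering, was at 163, 251 and 142 CPM in *#17*, against 57.0, 81.9 and 51.3 CPM in Col-0 (log2FC 1.55). The age-pathway activators *SPL4* (log2FC 1.16) and *SPL5* (1.53) rose too, as did *TSF*, a sister of the florigen gene, with 1.92, 1.92 and 0.359 CPM in *#17* against 0.0431, 0.0257 and 0.149 CPM in Col-0. *SVP*, a repressor, fell to 69.1, 54.1 and 72.1 CPM in *#17*, against 97.2, 99.1 and 96.0 CPM in Col-0 (log2FC -0.58). *FLC*, another repressor, was under 1 CPM in all libraries, with 0.0648, 0.0710 and 0.0674 CPM in *#17* and 0.604, 0.694 and 0.743 CPM in Col-0, and lost its call (log2FC -3.28, adjusted p = 0.014) without *#17* replicate 1 (adjusted p = 0.0522). Rises numbered 4 without Col-0 replicate 2 or 3 or *#17* replicate 1 or 2, and falls 1 without *#17* replicate 1.

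Phenylpropanoid, flavonoid and anthocyanin genes fell in 8 and rose in 2 of 36 (median log2FC -0.38), which is 22.2% falls beside 17% over all genes. Falls numbered 4 without Col-0 replicate 3 or *#17* replicate 1 or 2, and rises 1 without any one of Col-0 replicates 2 and 3 and *#17* replicates 1 and 2, and 5 without *#17* replicate 3. *4CL1*, which feeds the pathway with activated coumarate, was at 53.8, 56.6 and 71.6 CPM in *#17*, against 91.5, 156 and 143 CPM in Col-0 (log2FC -1.10). *MYB111*, a regulator of flavonol synthesis, was at 1.01, 0.899 and 1.1 CPM in *#17*, against 3.92, 1.72 and 2.57 CPM in Col-0 (log2FC -1.45). *PAL3*, one of the entry enzymes, rose with a log2FC of 0.81.

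In jasmonate synthesis and response 1 of 23 genes rose and 1 fell (4.35% each, beside 19.8% and 17% over all genes). *JAR1*, which couples jasmonate to isoleucine, was at 66.6, 70.2 and 63.3 CPM in *#17*, against 73.6, 346 and 568 CPM in Col-0 (log2FC -2.30, adjusted p = 0.0118, and -1.66 without Col-0 replicate 3). Replicate 1 of Col-0 lay close to *#17*. The lipoxygenase *LOX2* showed the same order in Col-0 and was not called, with 1004, 1789 and 807 CPM in *#17* and 675, 2749 and 3537 CPM in Col-0. *ORA59*, which integrates jasmonate and ethylene signals, rose to 25.3, 28.3 and 16.5 CPM in *#17*, against 4.92, 5.84 and 2.29 CPM in Col-0 (log2FC 2.43, SE 0.36, adjusted p = 0.000811). Salicylate genes gave 1 fall among 15 (6.67%). Of 12 indole glucosinolate genes 4 rose (33.3%) and 1 fell. Of 20 aliphatic ones 1 rose (5%), which was *MAM3* (log2FC 1.297, not called without *#17* replicate 1). *CYP81F2*, which modifies indole glucosinolates, was at 37.3, 44.3 and 24.8 CPM in *#17*, against 8.24, 7.33 and 4.24 CPM in Col-0 (log2FC 2.43, SE 0.31, adjusted p = 0.000382). *MYB51*, its regulator, was at 81.8, 88.2 and 61.0 CPM in *#17*, against 32.9, 23.6 and 14.9 CPM in Col-0 (log2FC 1.69). *PEN2*, which cleaves the products, was at 407, 407 and 377 CPM in *#17*, against 196, 227 and 184 CPM in Col-0 (log2FC 0.97, SE 0.12). The other regulator, *MYB34*, was at 8.25, 10.9 and 5.84 CPM in *#17*, against 10.4, 65.2 and 94.2 CPM in Col-0, with the libraries overlapping through Col-0 replicate 1, and was not called without Col-0 replicate 3 or *#17* replicate 1. Of 11 superoxide dismutase, ferritin and iron genes 3 rose (27.3%) and 1 fell. Without Col-0 replicate 2 or *#17* replicate 1 or 3, 1 rose. The iron store *FER1* was at 282, 320.5 and 279 CPM in *#17*, against 113, 94.9 and 158 CPM in Col-0 (log2FC 1.27). Of 8 heat shock genes 1 rose (12.5%). It was the repressor *HSFB2A*, with 17.7, 21.9 and 16.2 CPM in *#17* and 5.45, 6.89 and 6.15 CPM in Col-0 (log2FC 1.59, SE 0.13). The bars for all lists allow these counts to be read beside the share over all genes.

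**Figure D3:**
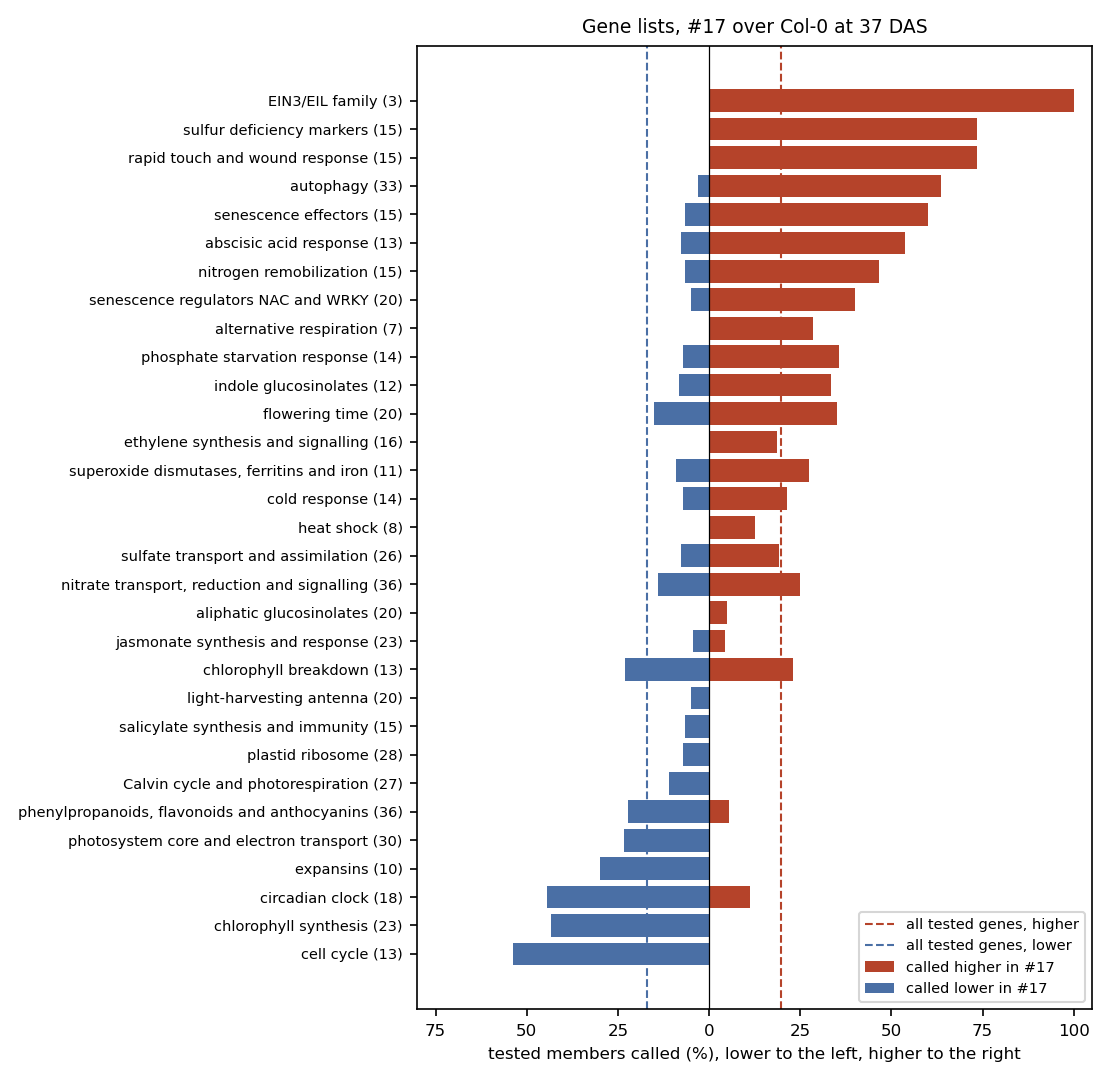
Percent of the tested members of each of 31 gene lists called lower (bars to the left) and higher (bars to the right) in *#17* than in Col-0 at 37 DAS, with dashed lines at the shares over all genes, 17% lower and 19.8% higher. Sulfur deficiency markers and the touch response lie almost wholly to the right, and the cell cycle and chlorophyll synthesis lie wholly to the left.

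Col-0 rosettes also changed with age, and the libraries of 30 and 44 DAS, which are not used in the comparison at 37 DAS, show how. Of the genes tested, 6849 were higher at 44 DAS than at 30 DAS in Col-0. In *#17* at 37 DAS 41.0% of these rose and 3.50% fell. Of the 7081 genes lower with age in Col-0, 4.05% rose in *#17* and 35.1% fell. Of the 6366 genes not called with age, 14.6% rose and 11.4% fell. Across all 20296 genes the age change in Col-0 and the difference between *#17* and Col-0 had a Pearson correlation of 0.423 and a Spearman correlation of 0.532, as a description over genes that are not independent replicates. A group that goes with age in this sense is the touch response, whose members had a median age change of 2.33 on the log2 scale in Col-0. All 15 of them were called higher at 44 DAS, beside 33.2% of all genes. Not every list did so. The jasmonate list had a median age change of 3.77, with 22 of 23 genes higher at 44 DAS. In *#17* at 37 DAS its median log2FC was -0.06, with 1 rise and 1 fall.

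**Figure D4:**
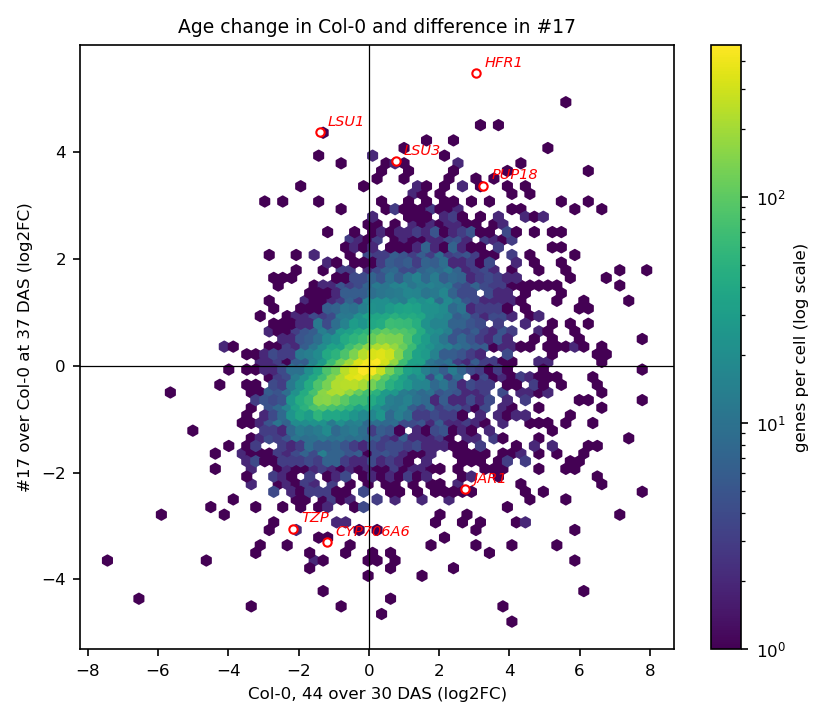
Change in Col-0 between 30 and 44 DAS (log2 of 44 over 30 DAS, horizontal) against the difference between *#17* and Col-0 at 37 DAS (log2FC, vertical), as a density of genes. The cloud of genes tilts upward (Pearson correlation 0.423), while *LSU1* (age change -1.40, log2FC 4.38) and *JAR1* (2.74, -2.30) lie off that tilt.

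Some genes went against the age change. *LSU1* fell with age in Col-0 (-1.40 on the log2 scale) and rose in *#17*, and so did *LSU4* and *MGD2*. *IAA29*, an auxin response repressor, was at 5.05, 6.62 and 8.04 CPM in *#17*, against 1.73, 1.105 and 2.06 CPM in Col-0 (log2FC 2.00), with an age change of -1.54. *BEE3*, a bHLH factor of brassinosteroid responses, was at 6.65, 4.16 and 9.63 CPM in *#17*, against 2.91, 1.697 and 1.23 CPM in Col-0 (log2FC 1.81), with -1.30. In the other direction, *JAR1*, the amino acid carrier *AAP3*, the cytokinin oxidase *CKX4* and *FKF1* rose with age in Col-0 (2.74, 0.80, 1.67 and 0.91) and fell in *#17*. *CKX4* was at 7.69, 9.11 and 16.2 CPM in *#17*, against 16.9, 41.1 and 46.4 CPM in Col-0 (log2FC -1.66). These genes were picked after their values were seen.

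A direct test between the overexpressors found 882 genes higher (4.35%) and 792 lower (3.9%) in *#17* than in *#25*. The number depends on single libraries, being 426, 523 and 5364 in all without *#17* replicates 1, 2 and 3, and 535, 868 and 502 without *#25* replicates 1, 2 and 3. Whichever of these libraries was left out, more genes were lower than higher, with 40% to 48.1% of calls higher. The same held with only the 2 groups compared (347 higher, 439 lower) and with all 39 libraries (1529 higher, 1704 lower). With library size alone 1404 genes were higher and 612 lower. *SLIM1* itself was higher in *#17* by 0.81 on the log2 scale (SE 0.19, adjusted p = 0.0309). Of the genes furthest below *#25*, 4 kept their call whichever library was left out, and they are rapid response genes. *ORA47*, an early jasmonate factor, was at 9.57, 11.0 and 9.69 CPM in *#17*, against 54.5, 117 and 74.5 CPM in *#25* (difference -3.00, SE 0.44, adjusted p = 0.00562). *CBF1* was at 2.42, 1.14 and 2.55 CPM in *#17*, against 13.1, 13.8 and 9.12 CPM in *#25* (-2.54, SE 0.34, adjusted p = 0.00395). *ACS6*, an ethylene synthesis enzyme induced by stress, was at 21.3, 29.4 and 23.8 CPM in *#17*, against 117, 99.3 and 170 CPM in *#25* (-2.35, SE 0.22, adjusted p = 0.000873). Against Col-0, these 3 genes were not called in *#17* (log2FC 0.88, 0.44 and -0.13) and were called higher in *#25* (3.89, 2.98 and 2.21), as were 12.5% of all genes. *WRKY41*, a factor of pathogen responses, was lower in *#17* too (-2.55, adjusted p = 0.0046). Of the touch list, 7 of 15 genes were lower in *#17* than in *#25* and none was higher.

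In the other direction, *BRG2*, a RING-type ligase, was at 36.1, 39.03 and 23.2 CPM in *#17*, against 8.60, 6.86 and 9.14 CPM in *#25* (2.03, SE 0.23, adjusted p = 0.00179). Col-0 lay with *#17*, at 40.3, 29.6 and 46.0 CPM. *ADT6*, an enzyme of phenylalanine synthesis, was at 3.23, 3.09 and 0.776 CPM in *#17*, against 0, 0.111 and 0 CPM in *#25* and 5.73, 8.80 and 9.99 CPM in Col-0 (5.89, and 9.77 without *#25* replicate 2).  *RLP33* (2.52), *MIOX2* (2.29), *NF-YA2* (1.99) and *BIP3* (-2.50) also lay at the extremes, but each lost its call when 1 library was left out, *RLP33* without *#25* replicate 1, *BIP3* without *#17* replicate 1 or 2 or *#25* replicate 2 or 3, *MIOX2* without any of the 5 libraries other than *#17* replicate 3, and *NF-YA2* likewise. The lists of sulfur deficiency, cell cycle and plastid ribosome genes held no gene called between the lines. Their median log2FC against Col-0 were 1.27, -0.75 and -0.64 in *#17* and 1.00, -0.18 and -0.07 in *#25*.

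The difference between *#17* and Col-0 was set against that of the week before and the week after. In a fit of all 39 libraries, 5156 of 21040 genes (24.5%) had a difference at 37 DAS that departed from that at 30 DAS, and 7002 (33.3%) one that departed from that at 44 DAS. *SLIM1* had log2FC of 2.97, 3.91 and 4.19 at 30, 37 and 44 DAS. The value at 37 DAS was above that at 30 DAS by 0.93 (SE 0.21, adjusted p = 0.00137), and its departure from 44 DAS was -0.28 (adjusted p = 0.304). *LSU1* had log2FC of 0.24, 4.37 and 3.17, with *#17* at 7.16, 5.48 and 6.39 CPM at 30 DAS, 23.7, 15.8 and 16.6 CPM at 37 DAS and 14.8, 23.9 and 16.2 CPM at 44 DAS. Col-0 was at 3.68, 6.33 and 6.15 CPM, 1.08, 1.01 and 0.622 CPM and 1.53, 2.55 and 2.06 CPM on these days. The difference at 37 DAS was larger than that at 30 DAS by 4.13 (SE 0.49, adjusted p = 6.89e-07), and its departure from 44 DAS did not pass the test (1.203, adjusted p = 0.0612). Of all genes, 2.52% were called higher and 1.81% lower at 30 DAS, and 22.4% higher and 25% lower at 44 DAS. Beside these shares, 2 of the 15 genes of the sulfur deficiency list were called higher and none lower at 30 DAS, and 9 higher and 4 lower at 44 DAS.

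Several of the strongest rises at 37 DAS differed from those of both other days in the direct test. *PUP18* was at 14.2, 12.7 and 18.21 CPM at 30 DAS, 453, 564 and 368 CPM at 37 DAS and 479, 313 and 289 CPM at 44 DAS in *#17*, against 29.9, 35.8 and 36.1 CPM, 43.9, 62.0 and 28.1 CPM and 275, 484 and 219 CPM in Col-0. The range of *#17* at 37 DAS overlapped that of Col-0 at 44 DAS, and the log2FC were -1.18, 3.37 and 0.14. *TCH4* followed the same course, with log2FC of -1.20, 3.15 and -0.46. *XTH33* had log2FC of -1.52, 4.00 and -0.41. *MIOX2*, an inositol oxygenase of cell wall sugar supply, was higher in *#17* at 37 DAS (52.1, 86.3 and 129 CPM, against 12.1, 32.2 and 11.3 CPM in Col-0) and lower at 44 DAS (15.04, 14.2 and 10.1 CPM, against 146, 112 and 107 CPM in Col-0). Its log2FC were -0.41, 2.26 and -3.21. *DIN10*, a raffinose-related gene induced by darkness and sugar shortage, also changed sign, with log2FC of -1.85, 1.73 and -3.41. It was at 740, 820.2 and 1156 CPM in *#17* and 286, 378 and 154 CPM in Col-0 at 37 DAS, and at 352, 220 and 135 CPM in *#17* and 2660, 2844 and 2038 CPM in Col-0 at 44 DAS.

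Among the falls, *CYP706A6* was at 126, 122 and 80.6 CPM in *#17* and 101, 102 and 102 CPM in Col-0 at 30 DAS, and at 15.6, 18 and 19.3 CPM in *#17* and 38.1, 40.6 and 54.2 CPM in Col-0 at 44 DAS (log2FC 0.11, -3.30 and -1.34). The line was thus level with Col-0 first and below it from 37 DAS. *CBF3* had log2FC of 1.901, -2.35 and 1.61, lower in *#17* at 37 DAS alone. With it, the cold response list had 12 genes higher and none lower at 30 DAS, 3 higher and 1 lower at 37 DAS and 9 higher and none lower at 44 DAS, of 14 genes, while the share of all genes called higher was 2.52%, 19.8% and 22.4% on these days. *TBL26* had log2FC of 1.08, -3.70 and 0.69 and *CYP71B26* 0.26, -2.33 and 0.79. At 44 DAS most genes were lower in the groups in which replicate 3 of *#17* had stood apart at 37 DAS. Called lower were 21 of 23 chlorophyll synthesis genes, 28 of 28 plastid ribosome proteins, 30 of 30 photosystem genes and 13 of 13 cell cycle genes, beside 25% of all genes. Of the 8 type-A response regulators tested, 6 were called lower and 1 higher on that day. At 30 DAS none of the chlorophyll synthesis, plastid ribosome and cell cycle genes was called, on a day when 1.81% of all genes were called lower. The plot of log2FC by day shows these courses.

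**Figure D5:**
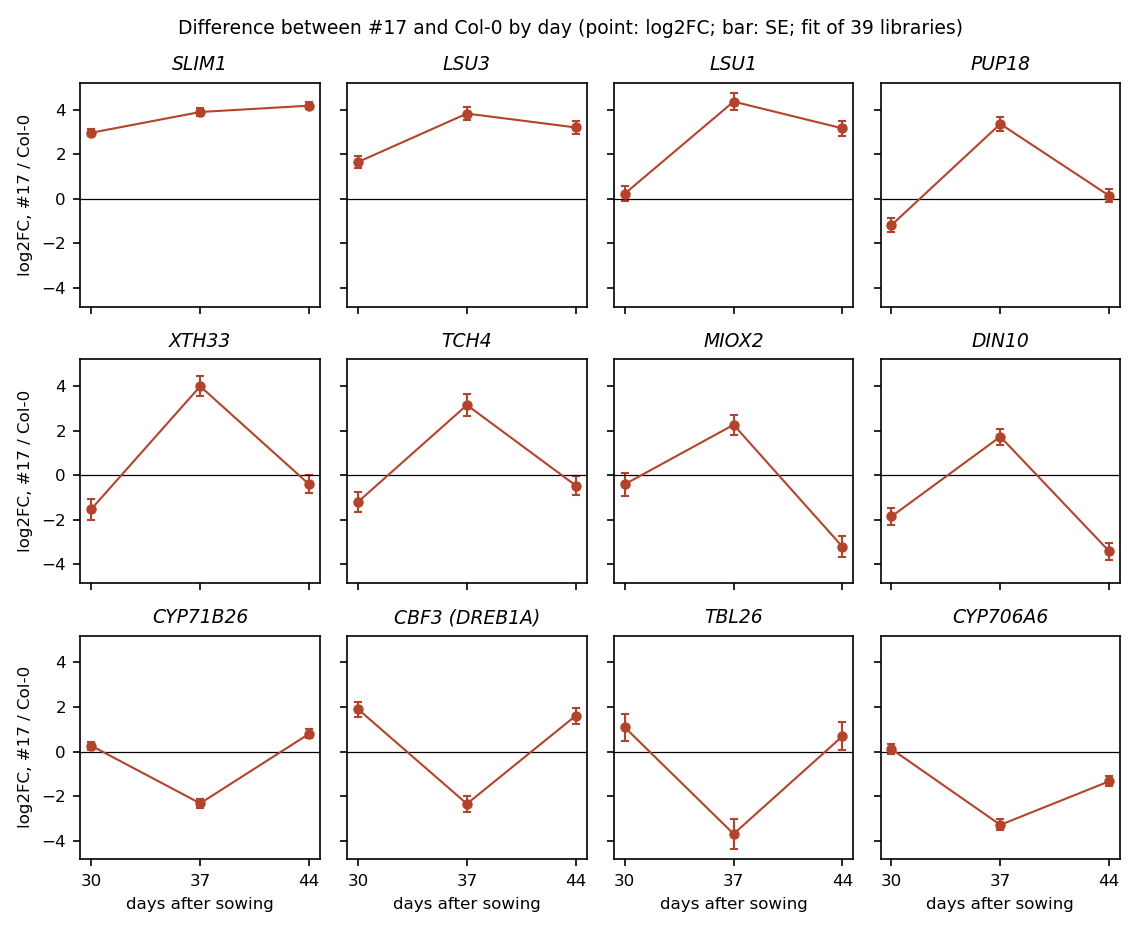
Difference between *#17* and Col-0 (log2FC with SE, vertical) at 30, 37 and 44 DAS for 12 genes, from the fit of all 39 libraries. *SLIM1* is above 0 on all 3 days, *PUP18* and *XTH33* stand out at 37 DAS, *MIOX2* and *DIN10* are above 0 at 37 DAS and below it at 44 DAS, and *CBF3* (labelled DREB1A) is below 0 at 37 DAS only.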

How the data were processed

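Rosettes of 3 replicates per group were sequenced as strand-specific, paired-end libraries of polyadenylated RNA. The reads were cleaned with SOAPnuke. The authors used CLC Genomics Workbench, with TAIR10 and Araport11 as reference, to map them, and the deposited counts, whole numbers of reads for each gene, are the values used here. The strand setting of the counting is not given in the sources used here. A second deposited table, a signal made by dividing counts by DESeq2 (version 1.40.2, per the labels) size factors, was not used here. Its values follow from the counts.

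In R 4.3.3 with edgeR 4.0.16 and limma 3.58.1, genes were kept by filterByExpr (minimum count 10 and minimum total 15), scaled by TMM and fitted over the 12 libraries of 37 DAS with 1 mean per group and robust dispersion. The quasi-likelihood F test gave *#17* minus Col-0 and *#17* minus *#25*, with Benjamini-Hochberg adjustment over the genes tested and a threshold of 0.05. The SE is the size of the log2FC divided by the square root of F. A fit of all 39 libraries in 13 groups gave the tests between days and the age change in Col-0. The edgeR fit, with the tests of *#17* minus Col-0, between days and of age in Col-0, was run on simulated counts. The other steps were not. The p-values measure the spread between the samples of a group, which may be technical in part, and depth covers counting error only. The replicate numbers did not pair the samples.

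The 31 pathway lists and 7 marker lists hold 629 entries, of which 585 carry a symbol that the annotation gives. Members, lists and comparisons were chosen with earlier results of these data known, so no list is independent evidence. Lists are described by counts and medians, and no set test was run. Genes named were drawn from fixed sources, and not all of their genes are described. The first were *SLIM1* and the 15 highest and the 15 lowest log2FC among called genes. The highest and lowest had a symbol, a mean level above 1 log2 CPM and groups that do not overlap. The others were up to 4 called members per direction of each list and the 5 most different genes per direction in each further comparison. For the tests between days, these 5 were drawn from called genes that met the same conditions. Genes the study names were added. Other members named as examples, and those going against age, were picked after their values were seen. Motifs were searched with Python 3.11.15 in TAIR10.1. Alternatives were RLE factors, library size alone, no count filter, a stricter filter (CPM of 1 in 3 libraries), DESeq2 1.42.0, a fit of only the 2 groups or of all 39 libraries, a block for the replicate number, flower marker level as a covariate or without the libraries highest in it, and leaving out each library.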

Additional observations from a re-analysis of the deposited data

Results flagged for a closer look

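The difference between *#17* and Col-0 was not the same on all days. A direct test of the difference at 37 DAS against that at 30 DAS picked out 5156 of 21040 genes, and against that at 44 DAS 7002 genes (edgeR's quasi-likelihood test on the interaction, adjusted p below 0.05). The genes below have the largest departures among genes that passed the test and had a symbol and a mean level above 1 log2 CPM. A further condition was that the libraries of *#17* and Col-0 at 37 DAS do not overlap. Each value is the log2FC at 37 DAS minus that of the other day.

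Against 30 DAS, the departures were upward in the xyloglucan enzyme gene *XTH33* (5.51), the cytokinin-linked gene *SOB5* (4.63), the phosphate-induced gene *PHI-1* (4.55), the purine permease gene *PUP18* (4.55) and the galactolipid synthase gene *MGD3* (*MGDC*, 4.40). *PHI-1* gave 5.51 without Col-0 replicate 2 of 37 DAS. They were downward in *TBL26* (-4.79, and -4.02 without Col-0 replicate 3 of 37 DAS), the cold regulator *CBF3* (*DREB1A*, -4.25), *CYP706A6* (-3.41), the beta-glucosidase gene *BGLU7* (-3.03) and the trichome regulator *GIS* (-2.95).

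Against 44 DAS, the departures were upward in *CML30* (11.67), *MIOX2* (5.48, and 6.13 without Col-0 replicate 2 of 37 DAS), *DIN10* (5.15), the cell wall extensin gene *LRX2* (4.93, and 4.29 without *#17* replicate 3 of 37 DAS) and *XTH33* (4.40). *CML30* was at 0 in the Col-0 libraries of 37 DAS, so that its value depends on the prior count of the fit and is no measure of size. They were downward in *TBL26* (-4.39, and -3.62 without Col-0 replicate 3 of 37 DAS), the abscisic acid hydroxylase gene *CYP707A2* (-4.17), *CBF3* (-3.96), the B-box gene *BBX29* (-3.17) and *CYP71B26* (-3.12). Passing the test in the fit of all libraries was a condition for listing these values and is no further result.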

How the results depend on the processing

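No called value of a named gene changed sign under any alternative run. *ACS6* in *#17* against Col-0, which was not called (-0.13), ran from -0.28 to 0.03 as libraries were left out. Genes that fell in *#17* numbered 2192 with only the 2 groups compared, and 1951 to 4503 as each library was left out (main count 3450). Genes that rose numbered 2986 to 4480 (main count 4019). Genes called between *#17* and *#25* were 1674 in the main analysis, 3444 with DESeq2, 786 with only the 2 groups compared, 3233 with all 39 libraries, and 426 to 5364 with 1 library left out. The tests between days gave 3899 to 6361 genes (37 against 30 DAS) and 6000 to 6883 genes (37 against 44 DAS) with 1 library left out. Which of rises and falls were more numerous did change. With library size alone, rises took 43.1% of the calls of the main comparison in place of 53.8%, 69.6% in place of 52.7% between the overexpressors, 46.1% in place of 57.5% for 37 against 30 DAS and 30.5% in place of 56.8% for 37 against 44 DAS, where the medians over all genes were -0.11 and -0.21 for the 2 tests between days. Without the libraries highest in flower markers, 4058 genes rose and 4052 fell. With flower marker level as a covariate, 4416 rose and 3880 fell.

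The replicate numbers did not pair the samples, since the deviations of *#17* and Col-0 libraries with the same number correlated at 0.0025, 0.27 and -0.22. With the replicate number as a block, 3752 genes rose and 3064 fell, 1074 were called between the overexpressors (517 higher and 557 lower in *#17*, against 882 and 792 without the block), and 19 of the 212 named results lost their call. With only the 2 groups compared 46 named results lost their call, among them *APK3*, *APK4*, *ARR6*, *ASN1*, *ASN2*, *SDI1*, *EIN3*, *GUN4*, *SAG12*, *SWEET15* and *ATG1A*. Without the libraries highest in flower markers 14 did, among them *EIN3*, *EIL1*, *LHY*, *WRKY54*, *SAG12*, *ASN1*, *ATG1A* and, against Col-0, *MIOX2*. This setting takes out *#17* replicate 3, the library of *#17* that was most often nearest to Col-0, together with Col-0 replicate 1. With flower marker level as a covariate, 1 named result lost its call. The cause was not tested in any of these cases. Genes of low level, such as *FLC*, *TSF* and *ACS7*, rest on few counts.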
